A study of Mus musculus with 9 samples.

Results

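The nuclear genes for subunits of respiratory complexes I to IV were followed in Caki, a long-established line grown from a human renal cancer, after retroviral expression of YAP1. Subunits were taken by symbol and biotype: protein-coding genes named NDUFA, NDUFB, NDUFC, NDUFS or NDUFV with a number, UQCR genes, COX4 to COX8 genes, CYC1, and SDHA to SDHD. The rule took 70 of the 58735 genes in the table, and 62 of them passed the filter on low counts. By complex, 37 of the 70 belong to complex I, 4 to complex II, 10 to complex III and 19 to complex IV. NDUFA4 and its paralogue NDUFA4L2 are counted with complex IV, where NDUFA4 is now placed, although their symbols come from complex I. There were 3 groups of 3 libraries. YAP1-S127A cells carried YAP1 with alanine in place of serine 127, a site at which the Hippo kinases act on the protein. YAP1 cells carried the wild-type protein, and MX cells carried the empty vector. All 3 groups were selected with G418 and so share the vector backbone, virus exposure and drug. The sources used here give neither the vector's promoter nor whether each line is a pool or a single clone. The labels do not say that libraries came from separate cultures, so p-values cover library-to-library spread alone, part or all of which may be technical.

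The respiratory chain passes electrons from NADH and succinate to oxygen and pumps protons across the inner mitochondrial membrane. Complex I oxidises NADH, complex II oxidises succinate as part of the citric acid cycle, complex III hands electrons to cytochrome c, and complex IV reduces oxygen. Complexes I, III and IV join nuclear-encoded subunits with a few encoded by the mitochondrial genome, while complex II is nuclear-encoded throughout. In kidney the proximal tubule depends on this chain for transport work, and clear cell renal carcinoma is known for low respiration. YAP1 is a transcriptional coactivator of the Hippo pathway that works through TEAD factors.

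Libraries held 15789722 to 24811150 counts, so 3 counts, taken as the floor of detection, correspond to 0.107 to 0.229 CPM, a level scaled to library size after TMM, which corrects for library composition. The introduced gene was seen in its groups. YAP1 stood at 741, 692 and 631 CPM in YAP1-S127A cells and 1519, 1003 and 1137 CPM in YAP1 cells, against 108, 100.3 and 91.1 CPM in MX cells. Transcripts of the mitochondrial genome took 29.6, 7.40 and 21.2% of counts in YAP1-S127A replicates 1 to 3, 3.50, 8.60 and 11.4% in YAP1 replicates, and 5.89, 6.60 and 1.896% in MX replicates. The share differed widely within groups. Of 8 renal markers 6 had at least 10 counts in every library, with PAX8, a kidney lineage factor, at means of 262, 297 and 285 CPM in YAP1-S127A, YAP1 and MX cells. PAX2 had at most 1 count in any library, and CA9, a hypoxia-inducible carbonic anhydrase typical of clear cell renal carcinoma, averaged 0.0888, 0.424 and 0.489 CPM in the same order. Summed leukocyte markers reached at most 1.68 CPM with CD3E at 0 throughout, summed endothelial markers at most 1.78 CPM, and HBA1 and HBA2 of red cells were at 0. The summed fibroblast list ranged over 2099 to 3820 CPM in YAP1-S127A cells, 1327 to 1681 CPM in YAP1 cells and 773 to 1308 CPM in MX cells. Most of it was COL1A1, a collagen that carcinoma cells can also express, and 3 of its 7 genes had at least 10 counts in every library, while PDGFRA had at most 5. Its part in the results below was not tested. In bulk RNA, fewer cells of a type and less RNA per cell cannot be told apart.

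Transcripts of all 4 complexes were present, in similar proportions in every library. Complex I genes made up 40.1 to 42.1% of all subunit counts over the 9 libraries, complex II genes 5.70 to 7.65%, complex III genes 19.1 to 21.0% and complex IV genes 30.2 to 33.6%. Per kilobase of deposited gene length, mean levels over the 9 libraries were highest for NDUFS5 (282 CPM per kb), NDUFB7 (233) and COX8A (231), short accessory subunits of complexes I and IV. COX6B1 (134 CPM per kb) and CYC1, the cytochrome c1 of complex III (122), came next. The lowest tested were NDUFA13 (0.904 CPM per kb), NDUFV2 (0.360) and NDUFA4L2 (0.349). The deposited length appears to span all exons of a gene, which lowers the level per kilobase of genes with many isoforms. NDUFV2 encodes a core iron-sulfur subunit, so its 176 counts in 9 libraries stand out. The row of its pseudogene held 527 counts, 74.96% of the sum of both, so its level is uncertain, as reads may have been assigned to the copy. For other subunits with pseudogene rows that share was at most 8.62%, for SDHA.

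The tissue-restricted isoforms were the subunits that failed the filter. COX6A2, COX7B2 and the read-through gene NDUFC2-KCTD14 had 0 counts in every library. COX4I2, the lung and hypoxia isoform of COX4, and COX8C had at most 1 count in a library, the testis isoform COX6B2 at most 3 and the heart and muscle isoform COX7A1 at most 5. NDUFA7, a ubiquitous accessory subunit of complex I, also failed it with at most 12 counts. The ubiquitous partners were plentiful. COX4I1, the largest nuclear-encoded subunit of complex IV, had 409.7, 554 and 502 CPM in YAP1-S127A cells and 469, 481 and 395 CPM in YAP1 cells, against 419, 735 and 580.4 CPM in MX cells. These ranges overlap, and MX replicate 2 is the highest.

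YAP1-S127A cells were set against MX cells to see how these genes respond to the form of YAP1 that escapes Hippo phosphorylation. Few subunits changed. COX7A2 rose, and NDUFA4L2, NDUFS5 and COX6A1 fell, which makes 4 of 62 tested subunits, or 6.45%, against 18.4% of all 15492 tested genes (edgeR's quasi-likelihood test, Benjamini-Hochberg adjusted p under 0.05). Of all tested genes 9.53% rose and 8.84% fell. In all, 43 subunits had a negative and 19 a positive log2 fold change. Their median was -0.12, against -0.00 over all tested genes. At an unadjusted p under 0.05 there were 12 subunits, against 31.3% of all genes. The 95% interval of the fold change lay within 1.5-fold in either direction for 46 of the 62 and within 2-fold for 59, so differences of 2-fold or more lie outside the interval for nearly all of them. Groups did not overlap for 11 subunits that were lower in YAP1-S127A cells, against 16.0% of all genes, and for 5 that were higher, against 16.7%. Scaled to total counts 24 passed, all of them lower, with the median of all genes moved by -0.28. In that fit 28.7% of all genes passed. The counts also rest on single libraries. Without MX replicate 1 the test called 14 subunits, 1 higher and 13 lower, and 19.6% of all genes. Without MX replicate 2 it called 4 subunits, all of them higher, and 16.9% of all genes. The median over the subunits then moved to -0.04. Without YAP1-S127A replicate 1 it called 1 subunit in each direction and 15.2% of all genes. Without YAP1-S127A replicate 3 it called 0 subunits and 11.7% of all genes.

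**Figure D1:**
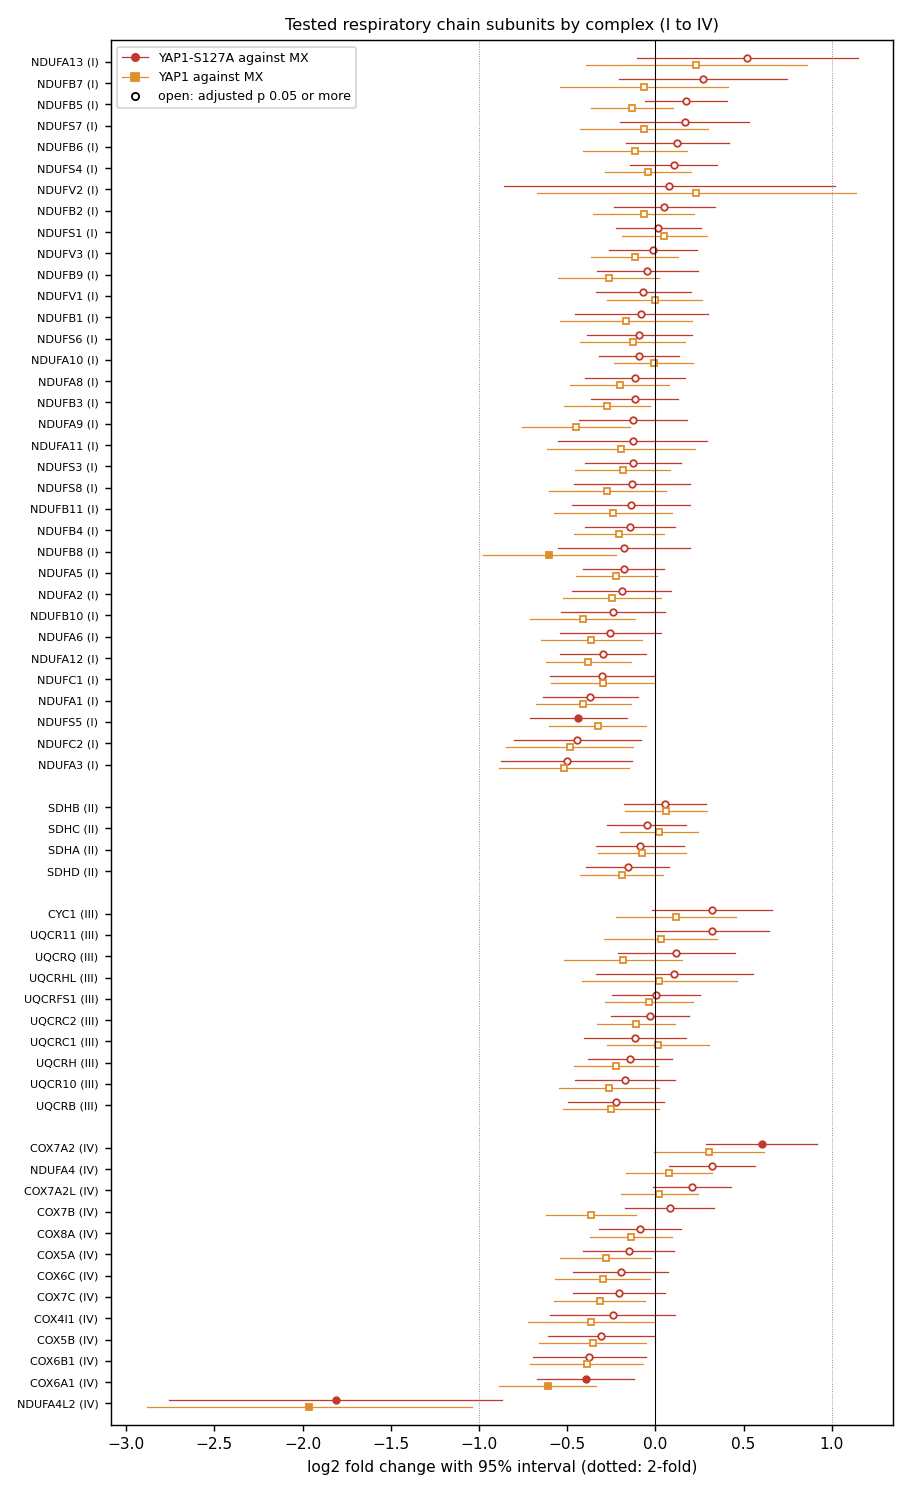
Log2 fold changes with 95% intervals of 61 of the 62 tested subunits (rows, grouped by complex I to IV and sorted within it) for YAP1-S127A against MX (red circles) and YAP1 against MX (orange squares), which share the MX libraries. Filled symbols have an adjusted p under 0.05, 4 and 3 subunits, and dotted lines mark 2-fold. Most intervals cross 0, and NDUFA4L2 lies apart at -1.81 and -1.96.

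NDUFA4L2, the paralogue of NDUFA4, is known as a target of hypoxia-inducible factors and is high in clear cell renal carcinoma. It lies on chromosome 12 from 57234903 to 57240715, minus strand, in the table's coordinates. Its levels were 0.686, 0.507 and 0.420 CPM in YAP1-S127A cells and 0.570, 0.567 and 0.311 CPM in YAP1 cells, against 1.60, 3.02 and 1.13 CPM in MX cells. Every MX library was above every library with a construct. These levels rest on few counts, 9, 8 and 8 in YAP1-S127A cells and 11, 10 and 7 in YAP1 cells, against 45, 50 and 30 in MX cells. Against MX the log2 fold change was -1.81 with YAP1-S127A (SE 0.45, adjusted p = 0.00753) and -1.96 with YAP1 (SE 0.44, adjusted p = 0.00862). The call for YAP1-S127A was lost in 4 of 24 alternatives, among them the fits without MX replicate 2 (adjusted p = 0.0513) or YAP1-S127A replicate 3 (0.0519). That for YAP1 was lost in 3 of 24, among them the fits without MX replicate 2 (0.0660) or YAP1 replicate 3 (0.0681). Per kilobase it reached 0.509, 0.426 and 0.284% of the NDUFA4 level in YAP1-S127A cells and 0.541, 0.484 and 0.265% in YAP1 cells, against 1.58, 2.57 and 1.09% in MX cells. NDUFA4, a subunit of complex IV, had 171, 151 and 188 CPM in YAP1-S127A cells and 134, 148 and 148 CPM in YAP1 cells, against 129, 149 and 131 CPM in MX cells. All YAP1-S127A libraries exceeded all MX libraries for NDUFA4, with a log2 fold change of 0.32 that did not pass the test (adjusted p = 0.0641). It did pass with DESeq2 (adjusted p = 0.0356) and with the replicate number as a block (0.0405). It also passed without MX replicate 2 (0.0446) or YAP1-S127A replicate 2 (0.0488).

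COX7A2, the ubiquitous isoform of a small complex IV subunit at the interface of the enzyme's monomers, was the sole subunit to rise with YAP1-S127A. It lies on chromosome 6 from 75237675 to 75250323, minus strand. It had 117, 114 and 148 CPM in YAP1-S127A cells and 83.5, 112 and 111 CPM in YAP1 cells, against 68.9, 99.4 and 81.1 CPM in MX cells. YAP1-S127A libraries were above all MX libraries, whereas YAP1 libraries overlapped them. The log2 fold change was 0.60 (SE 0.15, adjusted p = 0.00771) with YAP1-S127A and 0.30 (SE 0.15, adjusted p = 0.275) with YAP1. All 796 tested genes of chromosome 6 had medians of 0.16 and 0.19 in these comparisons, and with chromosome-wide shifts removed the rise with YAP1-S127A still passed. The call was lost in 5 of 24 alternatives. Among them were the fits without YAP1-S127A replicate 3 (adjusted p = 0.0648), with the mitochondrial share as covariate (0.336) and scaled to total counts.

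NDUFS5, an accessory subunit of complex I on the intermembrane-space side of its membrane arm, lies on chromosome 1 from 39026318 to 39034636, plus strand. It had 124, 146 and 135 CPM in YAP1-S127A cells and 163, 149 and 125 CPM in YAP1 cells, against 158, 213 and 178 CPM in MX cells. Every YAP1-S127A library lay below every MX library, and the YAP1 libraries overlapped both. Its log2 fold change was -0.44 with YAP1-S127A (SE 0.13, adjusted p = 0.0256), a fall that passed the test, and -0.33 with YAP1 (adjusted p = 0.161), which did not. The call with YAP1-S127A was lost in 7 of 24 alternatives. Among them were the fits without MX replicate 2 (adjusted p = 0.115) or MX replicate 3 (0.0506). Others were the fits without YAP1-S127A replicate 1 (0.0994) or YAP1-S127A replicate 3 (0.0849), and with the mitochondrial share as covariate (0.395).

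COX6A1, the ubiquitous isoform of a regulatory subunit of complex IV, fell with both constructs. It lies on chromosome 12 from 120438090 to 120440742, plus strand. It had 75.9, 79.4 and 91.3 CPM in YAP1-S127A cells and 76.8, 72.6 and 63.0 CPM in YAP1 cells, against 103, 129 and 93.1 CPM in MX cells. No library with a construct reached the lowest MX library, although YAP1-S127A replicate 3 came close. The log2 fold change was -0.39 (SE 0.13, adjusted p = 0.0425) with YAP1-S127A and -0.61 (SE 0.13, adjusted p = 0.00624) with YAP1. Pseudogene rows held 6.18% of the sum of both, and with them added the levels were 82.6, 85.6 and 96.1 CPM in YAP1-S127A cells, 81.3, 78.1 and 67.0 CPM in YAP1 cells and 108, 139 and 99.0 CPM in MX cells, again without overlap. The YAP1-S127A call was lost in 12 of 24 alternatives, among them the fit with chromosome-wide shifts removed (adjusted p = 0.0975) and the fits without MX replicate 2 (0.190), YAP1 replicate 2 (0.0602) or 3 (0.0505), or any YAP1-S127A replicate (0.142, 0.120 and 0.0501). The YAP1 call was lost in 2 of 24, without YAP1 replicate 3 (0.0607) and without the 3 libraries of largest mitochondrial share (0.0955).

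YAP1 cells were then set against MX cells, for the wild-type protein. COX6A1, NDUFA4L2 and NDUFB8 fell and 0 subunits rose, so 3 of 62 or 4.84% changed, against 6.81% of all tested genes (3.23% higher and 3.58% lower). The median over the subunits was -0.19, against -0.00 over all genes, with 50 negative and 12 positive values. At an unadjusted p under 0.05 there were 20 of 62, against 19.8% of all genes. Groups did not overlap for 14 subunits that were lower in YAP1 cells, against 12.0% of all genes, and for 0 that were higher, against 12.1%. Intervals lay within 1.5-fold for 41 and within 2-fold for 60. The count of called subunits was 17 without MX replicate 1, 1 without MX replicate 2 and 0 without YAP1 replicate 3. In the same fits 9.06, 5.21 and 3.81% of all tested genes were called. The median over the subunits ranged from -0.28 without MX replicate 1 to -0.10 without MX replicate 2.

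NDUFB8, an accessory subunit in the far part of the complex I membrane arm that is often used as a marker of assembled complex I, lies on chromosome 10 from 100523740 to 100530000, minus strand. It had 13.0, 15.5 and 16.3 CPM in YAP1-S127A cells and 12.9, 12.2 and 8.52 CPM in YAP1 cells, against 20.9, 16.3 and 13.6 CPM in MX cells. YAP1 libraries lay below MX libraries by a small margin, while YAP1-S127A libraries overlapped them. The log2 fold change with YAP1 was -0.60 (SE 0.18, adjusted p = 0.0496), just inside the threshold. The call was lost in 16 of 24 alternatives, 8 of them fits without 1 library, with an adjusted p of 0.282 without YAP1 replicate 3 and 0.123 with chromosome-wide shifts removed.

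**Figure D2:**
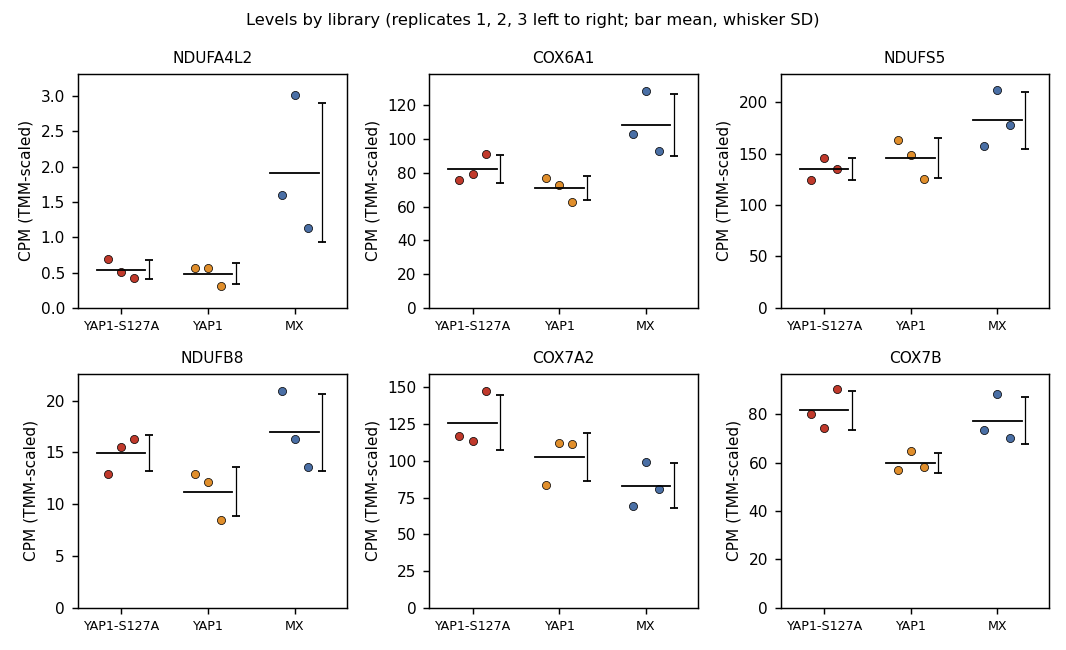
CPM of 6 subunits in each library, with points for replicates 1, 2 and 3 from left to right in each group, bars for the group mean and whiskers for the SD (n = 3). NDUFA4L2 and COX6A1 were lower in both construct groups than in MX, NDUFS5 was called lower with YAP1-S127A and NDUFB8 with YAP1, COX7A2 was higher with YAP1-S127A, and COX7B had the smallest p between the constructs.

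Within complex I the 7 tested core subunits that carry the FMN and iron-sulfur clusters showed little difference. Their log2 fold changes reached 0.17 (NDUFS7) with YAP1-S127A and ran from -0.27 (NDUFS8) to 0.23 (NDUFV2) with YAP1, with medians of -0.07 and -0.04, and 0 of 7 passed the test in either comparison. The shares over all tested genes were 18.4% with YAP1-S127A and 6.81% with YAP1. NDUFV1, which binds NADH and FMN, had 143, 174 and 148 CPM in YAP1-S127A cells and 185, 147 and 156 CPM in YAP1 cells, against 139.8, 175 and 174 CPM in MX cells. NDUFS1, which holds several iron-sulfur clusters, had 73.1, 77.8 and 79.6 CPM in YAP1-S127A cells and 76.5, 78.2 and 81.5 CPM in YAP1 cells, against 85.6, 66.3 and 76.0 CPM in MX cells. For both genes the 3 groups overlap.

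The accessory subunits of the near part of the membrane arm, close to the hinge with the arm that oxidises NADH, had low medians within complex I. Of 9 tested, 1 passed with YAP1-S127A (NDUFS5) and 0 with YAP1, against 18.4% and 6.81% of all tested genes. Their medians were -0.30 in both comparisons, against -0.13 and -0.20 over all 35 tested complex I genes. NDUFA1, an X-linked subunit needed for assembly, had 50.0, 53.7 and 57.1 CPM in YAP1-S127A cells and 57.7, 54.1 and 44.8 CPM in YAP1 cells, against 60.8, 80.2 and 67.1 CPM in MX cells. NDUFA3 had 24.3, 32.9 and 29.6 CPM in YAP1-S127A cells and 34.4, 29.1 and 22.5 CPM in YAP1 cells, against 31.9, 51.7 and 39.9 CPM in MX cells. NDUFA1 did not overlap with MX in either construct group and NDUFA3 overlapped in both, and neither passed the test. NDUFA1 had log2 fold changes of -0.37 (adjusted p = 0.0513) and -0.41 (0.0631) with YAP1-S127A and YAP1, and NDUFA3 -0.50 (0.0567) and -0.52 (0.0919). NDUFA13, also called GRIM-19, had the largest positive value in complex I with YAP1-S127A, 0.52, at only 2.90, 1.97 and 3.84 CPM in YAP1-S127A cells against 1.64, 2.24 and 2.25 CPM in MX cells (adjusted p = 0.252). The 11 tested subunits of the far membrane arm had medians of -0.08 with YAP1-S127A and -0.21 with YAP1. NDUFA12, of the NADH-oxidising arm, had 41.0, 37.2 and 39.8 CPM in YAP1-S127A cells and 39.2, 39.2 and 33.2 CPM in YAP1 cells, against 44.9, 53.1 and 47.3 CPM in MX cells. Its groups did not overlap with MX, and its adjusted p was 0.0829 with YAP1-S127A and 0.0558 with YAP1. NDUFA9, which sits beside the ubiquinone channel, had log2 fold changes of -0.13 with YAP1-S127A and -0.45 with YAP1 (adjusted p = 0.0764). NDUFA1, NDUFA3, NDUFA9, NDUFA12 and NDUFA13 are named for their values, after these were seen.

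Complex II, or succinate dehydrogenase, had 0 of 4 subunits past the test in each of the 3 comparisons. The shares over all tested genes were 18.4% with YAP1-S127A, 6.81% with YAP1 and 1.97% between the constructs. A count of 0 among so few subunits does not set the complex apart. SDHA, the flavoprotein that oxidises succinate, had 123, 154 and 127 CPM in YAP1-S127A cells and 141, 129 and 135 CPM in YAP1 cells, against 127, 146 and 155 CPM in MX cells. SDHB, the iron-sulfur subunit, had 74.5, 78.2 and 87.1 CPM in YAP1-S127A cells and 77.4, 82.5 and 81.5 CPM in YAP1 cells, against 71.2, 84.0 and 76.3 CPM in MX cells. The groups overlap for both. SDHC, a membrane anchor, had 119, 117 and 110.5 CPM in YAP1-S127A cells and 118, 119.9 and 125 CPM in YAP1 cells, against 116, 114 and 128 CPM in MX cells. SDHD, the other anchor, had 42.3, 41.6 and 48.0 CPM in YAP1-S127A cells and 45.0, 45.0 and 38.9 CPM in YAP1 cells, against 48.1, 50.3 and 48.8 CPM in MX cells. SDHD was the one subunit of complex II whose construct groups lay below MX, with log2 fold changes of -0.16 and -0.19 and adjusted p of 0.375 and 0.369. Against MX, the 95% intervals of the log2 fold change were -0.34 to 0.16 and -0.33 to 0.17 for SDHA, -0.18 to 0.29 and -0.17 to 0.29 for SDHB, and -0.27 to 0.17 and -0.20 to 0.24 for SDHC, with YAP1-S127A and YAP1 in that order.

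Complex III had 0 of 10 subunits past the test in each of the 3 comparisons, with medians against MX of -0.01 in YAP1-S127A cells and -0.07 in YAP1 cells. Over all tested genes 18.4% passed with YAP1-S127A, 6.81% with YAP1 and 1.97% between the constructs, so this count alone does not set the complex apart. CYC1, the catalytic cytochrome c1, had 247, 279.8 and 288 CPM in YAP1-S127A cells and 219, 244 and 245 CPM in YAP1 cells, against 148, 272 and 232 CPM in MX cells. MX replicate 1 was the lowest of all 9 libraries for CYC1, and the log2 fold changes were 0.32 (adjusted p = 0.187) and 0.12 (0.762). With YAP1-S127A, CYC1 did pass with the replicate number as a block (0.0429) and without MX replicate 2 (0.0335). UQCRFS1, the Rieske iron-sulfur protein, had 69.6, 76.8 and 67.5 CPM in YAP1-S127A cells and 75.4, 63.7 and 68.7 CPM in YAP1 cells, against 62.0, 78.3 and 73.1 CPM in MX cells, and the groups overlap. The core proteins UQCRC1 and UQCRC2 had log2 fold changes of -0.12 and -0.03 with YAP1-S127A and 0.01 and -0.11 with YAP1. Among the small accessory subunits, UQCR11 was at 0.32 and UQCRQ at 0.12 with YAP1-S127A, while UQCRH, UQCR10 and UQCRB were at -0.15, -0.17 and -0.22. With YAP1 these 5 stood at 0.03, -0.18, -0.22, -0.26 and -0.25. UQCRHL, an intronless copy of UQCRH, had 628 counts in all and may share reads with it, so its values of 0.11 and 0.02 are uncertain.

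Complex IV held 3 of the 5 subunits called in any comparison: COX7A2, COX6A1 and NDUFA4L2. With YAP1-S127A 1 of its 13 tested members rose and 2 fell, or 23.1%, against 18.4% of all tested genes. With YAP1 0 rose and 2 fell, or 15.4%, against 6.81%. Counts this small do not set the complex apart. Over its 13 tested members the medians were -0.20 with YAP1-S127A and -0.31 with YAP1. Of the 11 ubiquitous subunits, 5 and 8 had an unadjusted p under 0.05 with YAP1-S127A and YAP1, against 31.3 and 19.8% of all tested genes. COX6B1, which faces the intermembrane space, had 94.9, 126 and 121 CPM in YAP1-S127A cells and 119, 119.9 and 100.3 CPM in YAP1 cells, against 116, 184 and 145 CPM in MX cells. COX7C had 167, 193 and 178 CPM in YAP1-S127A cells and 188, 169 and 143 CPM in YAP1 cells, against 199, 229 and 193 CPM in MX cells. COX7C was lower in all 6 construct libraries than in the lowest MX library, by a narrow margin, while COX6B1 overlaps with MX. Neither passed: COX6B1 had log2 fold changes of -0.37 (adjusted p = 0.0973) and -0.39 (0.146), and COX7C of -0.21 (0.273) and -0.31 (0.148). COX6B1 did pass in some alternatives. Among them were the fits without MX replicate 1 (0.00624 with YAP1-S127A and 0.0109 with YAP1). Others, with YAP1-S127A, were by total counts (0.00258) and with the replicate number as a block (0.0367). COX7A2L, a relative of COX7A2 that links complexes III and IV in supercomplexes, had 88.8, 84.0 and 92.0 CPM in YAP1-S127A cells and 79.3, 79.2 and 74.5 CPM in YAP1 cells, against 72.7, 80.1 and 76.6 CPM in MX cells. Its YAP1-S127A libraries exceeded all others, with a log2 fold change of 0.21 against MX (adjusted p = 0.188). COX6B1, COX7C and COX7A2L are likewise named after their values were seen.

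YAP1-S127A cells were compared with YAP1 cells, which differ in the mutation and also in the level of YAP1 transcript, 631 to 741 CPM in YAP1-S127A cells against 1003 to 1519 CPM in YAP1 cells, so mutation and level cannot be told apart. By edgeR's test 0 of 62 subunits changed, against 1.97% of all genes (1.13% higher and 0.839% lower). At an unadjusted p under 0.05 there were 4, against 12.3% of all genes, and DESeq2 called 1 and limma-voom 0. Of the 62, 51 had a positive log2 fold change, all 13 of complex IV among them, and the median was 0.09, against 0.01 over all genes. Groups did not overlap for 11 subunits that were higher in YAP1-S127A cells, against 10.3% of all genes, and for 1 that was lower, against 9.34%. The median was 0.02 without YAP1 replicate 3. Scaled to total counts it was -0.12, with the median of all genes moved by -0.20, so its direction depends on the scaling. The smallest p belonged to COX7B, an X-linked complex IV subunit, with 80.1, 74.5 and 90.4 CPM in YAP1-S127A cells against 57.1, 64.7 and 58.3 CPM in YAP1 cells. MX cells had 73.5, 88.4 and 70.1 CPM, so YAP1-S127A and MX overlap and YAP1 lies below both. The log2 fold change between the constructs was 0.45 (SE 0.12, adjusted p = 0.0680), and DESeq2 gave an adjusted p of 0.0259. Intervals of the difference lay within 1.5-fold for 51 subunits and within 2-fold for 60.

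By library, the subunits' median level differed within groups. The median deviation of the 62 tested subunits from their 9-library means was -0.12, 0.04 and 0.03 (log2) in YAP1-S127A replicates 1 to 3 and -0.03, -0.05 and -0.22 in YAP1 replicates, against -0.05, 0.28 and 0.07 in MX replicates. MX replicate 2 was the highest and YAP1 replicate 3 the lowest, so the differences within groups were as large as those between them. The same medians over all tested genes lay between 0.00 and 0.02. Summed CPM of the 70 subunits was 5182, 5924 and 5815 in YAP1-S127A cells and 5451, 5404 and 4974 in YAP1 cells, against 5132, 6908 and 5953 in MX cells. The means were 5641 ± 401, 5276 ± 263 and 5998 ± 889 (SD, n = 3) in the same order, and the 3 groups overlap. Complex II varied least, with 374 ± 15.9 CPM in YAP1-S127A cells and 380 ± 2.75 in YAP1 cells, against 388 ± 23.6 in MX cells. Complex IV summed to 1803 ± 144 CPM in YAP1-S127A cells and 1630 ± 114 in YAP1 cells, against 1959 ± 341 in MX cells.

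Counts of the mitochondrially encoded subunits of complexes I, III and IV were set over those of the nuclear-encoded ones, leaving out the mitochondrial genes for ATP synthase. The ratios were 55.7, 9.99 and 33.3 in YAP1-S127A libraries and 4.68, 12.5 and 18.6 in YAP1 libraries, against 8.31, 7.68 and 2.23 in MX libraries. The nuclear-encoded subunits alone took 0.418, 0.592 and 0.514% of all counts in YAP1-S127A libraries and 0.592, 0.545 and 0.498% in YAP1 libraries, against 0.580, 0.704 and 0.654% in MX libraries. As a share of counts outside the mitochondrial genome they took 0.628% ± 0.0314, 0.591% ± 0.0258 and 0.679% ± 0.0695 (SD, n = 3) in YAP1-S127A, YAP1 and MX cells, so the range of the ratio lies mainly in the mitochondrial transcripts. YAP1-S127A replicate 2 lies within reach of the other groups and replicates 1 and 3 lie far above them. With YAP1-S127A reduced to replicate 2, 0 subunits passed against MX and the median was -0.04. That fit assumes that the lone library varies like the other groups.

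**Figure D3:**
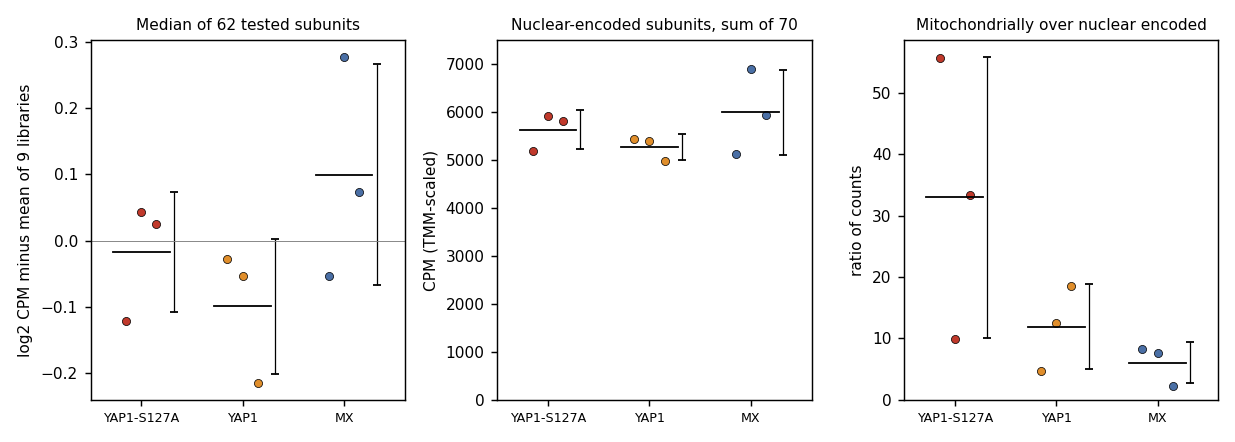
Per-library values, with points for replicates 1, 2 and 3, bars for the mean and whiskers for the SD (n = 3): median deviation of the 62 tested subunits from their 9-library means (left, log2 CPM), summed CPM of the 70 nuclear-encoded subunits (middle), and counts of mitochondrially encoded over nuclear-encoded subunits (right). MX replicate 2 is the highest at left and in the middle, at 0.28 and 6908, and the ratio at right spans 9.99 to 55.7 in YAP1-S127A libraries.

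Among 11 regulators of mitochondrial biogenesis, 2 fell with both constructs, where 8.84% and 3.58% of all tested genes fell with YAP1-S127A and YAP1. PPARGC1A, the coactivator PGC-1 alpha that drives genes of oxidative metabolism, had 3.05, 2.92 and 2.73 CPM in YAP1-S127A cells and 3.26, 2.89 and 2.26 CPM in YAP1 cells, against 9.13, 5.86 and 7.03 CPM in MX cells. ESRRG, an orphan nuclear receptor that works with PGC-1 coactivators, had 2.44, 1.84 and 1.79 CPM in YAP1-S127A cells and 2.12, 2.55 and 3.06 CPM in YAP1 cells, against 9.70, 6.53 and 8.00 CPM in MX cells. For both genes every construct library lay well below every MX library. PPARGC1A had log2 fold changes of -1.35 (SE 0.22, adjusted p = 0.000234) with YAP1-S127A and -1.40 (SE 0.22, adjusted p = 0.000360) with YAP1. ESRRG had -2.02 (SE 0.23, adjusted p = 4.63e-06) and -1.65 (SE 0.22, adjusted p = 7.47e-05). Both calls held in all 24 alternatives of both comparisons. Their relatives ESRRA and PPARGC1B did not pass, with log2 fold changes of 0.21 and -0.09 with YAP1-S127A and 0.19 and 0.08 with YAP1. NRF1, a factor that binds promoters of many respiratory genes, had 11.1, 14.6 and 12.5 CPM in YAP1-S127A cells and 14.5, 11.6 and 14.9 CPM in YAP1 cells, against 13.5, 12.0 and 14.3 CPM in MX cells. TFAM, which packages and transcribes mitochondrial DNA, had 65.5, 56.4 and 66.6 CPM in YAP1-S127A cells and 69.2, 69.4 and 64.5 CPM in YAP1 cells, against 79.1, 66.1 and 73.8 CPM in MX cells. Neither passed the test in any comparison. MYC rose with YAP1 by 0.47 (adjusted p = 0.0450), a call lost in 11 of 24 alternatives.

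**Figure D4:**
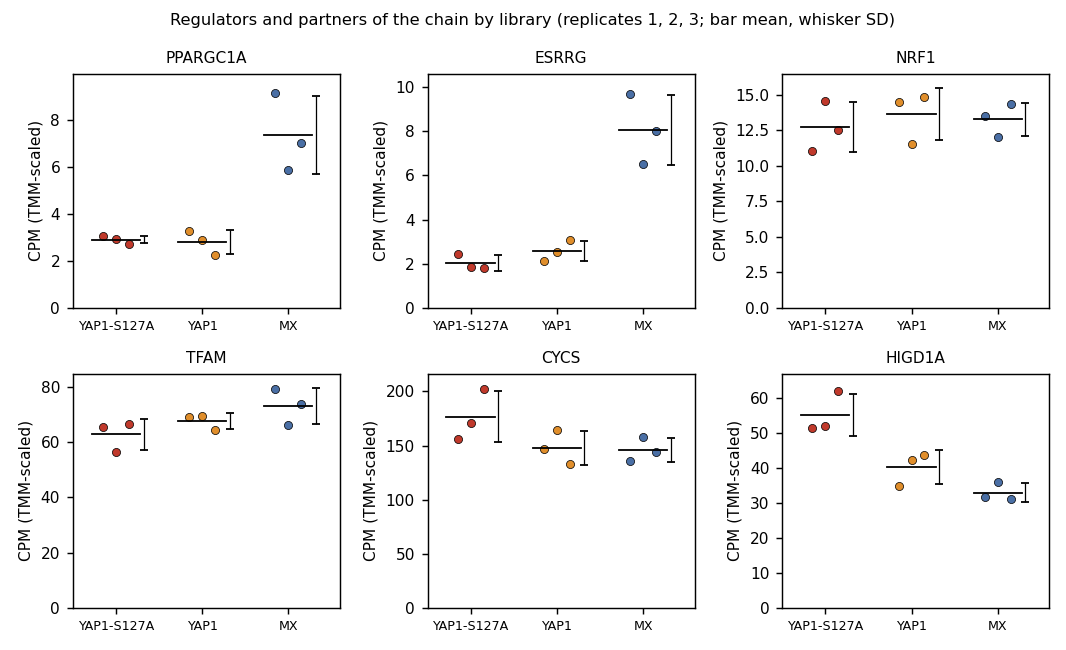
CPM of 6 genes that regulate or work with the respiratory chain, by library (points for replicates 1, 2 and 3, bars for the mean, whiskers for the SD, n = 3). PPARGC1A and ESRRG were below all MX libraries in both construct groups, HIGD1A was above all MX libraries with YAP1-S127A at 51.5 to 62.3 CPM, and NRF1, TFAM and CYCS did not pass the test.

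Factors that assemble the complexes mostly did not pass. With YAP1-S127A, 0 of 17 complex I assembly factors changed, 1 of 13 for complexes II and III rose, and of 26 for complex IV 1 rose and 1 fell. With YAP1 the counts were 0 of 17, 0 of 13, and 0 higher and 2 lower of 26. Over all tested genes 9.53% rose and 8.84% fell with YAP1-S127A, and 3.23% rose and 3.58% fell with YAP1. The median was 0.12 with YAP1-S127A and 0.03 with YAP1 over complex I assembly factors, 0.21 and 0.03 over those for complexes II and III, and -0.08 and -0.14 over those for complex IV. HIGD1A, a hypoxia-inducible inner-membrane protein that binds complex IV, had 51.5, 52.2 and 62.3 CPM in YAP1-S127A cells and 34.9, 42.3 and 43.8 CPM in YAP1 cells, against 31.7, 36.0 and 31.2 CPM in MX cells. It rose by 0.75 with YAP1-S127A (SE 0.12, adjusted p = 0.000258), where the groups do not overlap. HIGD2A, its relative, fell with YAP1 by 0.52 (adjusted p = 0.0235). COX15, which makes heme A for complex IV, had 32.9, 28.6 and 27.3 CPM in YAP1-S127A cells and 31.5, 31.2 and 27.5 CPM in YAP1 cells, against 41.9, 38.9 and 40.7 CPM in MX cells. It fell by 0.46 with YAP1-S127A (adjusted p = 0.00989) and by 0.43 with YAP1 (adjusted p = 0.0292). SDHAF4, an assembly factor of the succinate dehydrogenase flavoprotein, rose by 0.70 with YAP1-S127A (adjusted p = 0.0124). Of these calls that of HIGD1A was lost in 1 of 24 alternatives, with the mitochondrial share as covariate (adjusted p = 0.0503). COX15 was lost in 4 and 7, SDHAF4 in 6 and HIGD2A in 6.

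Downstream of the chain, 3 of 18 nuclear-encoded ATP synthase genes fell with YAP1-S127A and 2 with YAP1, with medians of -0.12 and -0.23. Of all tested genes 8.84% fell with YAP1-S127A and 3.58% with YAP1. ATP5MC2, one of the genes for the rotating c ring, had 254, 249 and 246 CPM in YAP1-S127A cells and 256, 236 and 206 CPM in YAP1 cells, against 306, 401 and 325 CPM in MX cells. It fell by 0.46 (adjusted p = 0.0136) and 0.56 (adjusted p = 0.00793) and did not overlap with MX. ATP5IF1, the inhibitor of ATP hydrolysis by the enzyme, fell by 0.44 (adjusted p = 0.0354) and 0.54 (adjusted p = 0.0233), and ATP5PD of the peripheral stalk by 0.42 with YAP1-S127A (adjusted p = 0.0243). Calls were lost in 5 of 24 alternatives for ATP5MC2, 9 for ATP5IF1 and 9 for ATP5PD with YAP1-S127A, and in 3 and 6 for the first 2 with YAP1. CYCS, the cytochrome c that links complexes III and IV, had 156, 171 and 202 CPM in YAP1-S127A cells and 147, 164 and 133 CPM in YAP1 cells, against 136, 158 and 144 CPM in MX cells. Its groups overlap and it did not pass, with log2 fold changes of 0.28 (adjusted p = 0.130) and 0.02 (adjusted p = 0.947).

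Other routes to the ubiquinone pool and the neighbouring pathways gave a mixed picture. Of 7 tested enzymes that feed electrons to ubiquinone, CHDH, which oxidises choline, fell by 1.55 (adjusted p = 0.000750) and SQOR, which oxidises sulfide, by 0.45 (adjusted p = 0.00673) with YAP1-S127A. ETFDH, which takes electrons from fatty acid oxidation, rose by 0.55 (adjusted p = 0.0162), and with YAP1 0 of 7 passed. CHDH was low, at 1.91, 1.46 and 1.10 CPM in YAP1-S127A cells and 3.73, 1.93 and 3.15 CPM in YAP1 cells, against 3.89, 4.05 and 4.96 CPM in MX cells. Of 13 tricarboxylic acid cycle enzymes 0 passed with either construct, and their medians were -0.02 and -0.00. Of 25 genes that replicate or transcribe mitochondrial DNA or handle its transcripts 1 fell with each construct, the helicase TWNK, by 0.55 (adjusted p = 0.00430) and 0.49 (adjusted p = 0.0200). Of 13 tested targets of hypoxia-inducible factors 3 fell and 1 rose with YAP1-S127A, and 1 fell with YAP1. Over all tested genes 8.84% fell and 9.53% rose with YAP1-S127A, and 3.58% fell with YAP1. EGLN3, an oxygen-sensing prolyl hydroxylase, fell with both (by 1.26 and 1.44), HK2, a hexokinase, and VEGFA, an angiogenic factor, fell with YAP1-S127A (by 0.72 and 0.47), and the one that rose was HIGD1A. Between the constructs 0 genes of any of these lists passed, with HIGD1A (0.46, adjusted p = 0.0682) and CHDH (-1.01, adjusted p = 0.0997) among those nearest to the threshold. The calls of CHDH, SQOR, ETFDH, HK2, VEGFA and EGLN3 with YAP1-S127A were lost in 1, 3, 6, 4, 9 and 6 of 24 alternatives. Those of TWNK were lost in 3 with YAP1-S127A and 6 with YAP1, and that of EGLN3 with YAP1 in 4.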

How the data were processed

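Messenger RNA of 9 libraries was sequenced, 3 per group. The authors deposited raw read counts per gene, whole numbers with no normalization per the file header, beside each gene's length in bases, which entered only levels per kilobase. The submitters' processing notes name HISAT2, Cufflinks, Salmon 1.9.0 and the mouse build GRCm39, but the deposited identifiers are human Ensembl genes. Human build, counting program and strand setting are not given in any source used, so reads of copies and overlapping genes may be split. No human sequence was at hand, so none is shown.

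edgeR 4.0.16 in R 4.3.3 kept 15492 of 58735 genes (filterByExpr) and fitted all 9 libraries together (TMM, robust quasi-likelihood, group as the only term). Two-sided p-values were adjusted by the Benjamini-Hochberg method across every gene tested. SE is the absolute log2 fold change over the square root of F. log2 CPM used a prior count of 2. Floors cover counting error only.

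Subunits, pathway lists and tests were chosen with earlier results of these data known. Named by rule were called subunits, all of complexes II and III, complex I core subunits, isoform pairs, up to 3 called genes per list and direction, and TFAM, PPARGC1A, NRF1 and CYCS. Single values of 1 subunit are not reported here. Older symbols matched 7 list genes. Alternatives used DESeq2 1.42.0, limma 3.58.1, other scalings, filters and libraries, and steps were tested on simulated data.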

Additional observations from a re-analysis of the deposited data

How the results depend on the processing

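Counts of called subunits and genes moved with the settings, while the medians over the subunits kept their sign against MX in every alternative run. In YAP1-S127A against MX some lay close to the median of all genes. The values were -0.038 against -0.025 with YAP1-S127A reduced to replicate 2. Without the 3 libraries of largest mitochondrial share they were -0.038 against -0.023, and by total counts -0.377 against -0.279. In YAP1 against MX the median nearest to 0 was -0.096, without MX replicate 2, against -0.001 over all genes. In YAP1-S127A against MX, 4 subunits and 2845 genes were called. Subunit counts were 24 by total counts (median -0.38), 8 without a low-count filter, 7 by DESeq2, 7 with a gene length offset, 1 with the mitochondrial share as covariate, and 0 with YAP1-S127A reduced to replicate 2 or without the 3 libraries of largest mitochondrial share. Gene counts were 4447 by total counts and 1286, 1278 and 1148 in the last 3 of these. Leaving out 1 library gave 0 to 14 subunits and 1847 to 3079 genes. In YAP1 against MX, 3 subunits and 1055 genes were called. Subunit counts were 5 by total counts, 8 without a filter, 5 by DESeq2, and 0 without the 3 libraries, where 596 genes were called. Leaving out 1 library gave 0 to 17 subunits and 601 to 1423 genes. Between the constructs 0 subunits and 305 genes were called. DESeq2, a fit of only these groups and removal of chromosome shifts each called 1 subunit, COX7B, and total counts turned the median to -0.12. Gene counts were 616 by total counts, 520 without a filter, 475 by DESeq2, 478 with only these groups, 151 with replicate 2 alone and 99 without the 3 libraries. Leaving out 1 library gave 0 to 1 subunits and 126 to 465 genes. With mitochondrial genes left out of library totals the log2 ratios of complex sums against MX, and with pseudocounts that of NDUFA4L2 over NDUFA4, moved by less than the spread between replicates. The sums themselves depend on the scaling: as shares of total counts those of complex II averaged 0.0336% in YAP1-S127A cells and 0.0392% in YAP1 cells, against 0.0420% in MX cells. The causes of these shifts were not tested. Reducing YAP1-S127A to replicate 2, leaving out the 3 libraries and removing chromosome shifts were chosen after seeing the data. Depth limits NDUFA4L2, NDUFV2, NDUFA13 and UQCRHL, the tested subunits with fewer than 100 counts in some library.

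With the replicate number as a block, 9 subunits were called in YAP1-S127A against MX and 9 in YAP1 against MX. Between the constructs 1 subunit and 472 genes were called. The block fits called 22.1, 9.22 and 3.05% of all tested genes in these comparisons, against 18.4, 6.81 and 1.97% without the block. Libraries of the same number in different groups correlated at -0.18 to 0.20 in their deviations from group means, against -0.25 to 0.21 for other numbers. In 6 of 18 combinations a library correlated best with its own number. These correlations show no pairing by number, but with 3 libraries per group they cannot exclude it.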
